A study of Mus musculus with 2 samples.

Results

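The 10 genes described here encode enzymes and receptors of the prostaglandin and leukotriene pathways. They are Ptgs1, Ptgs2, Ptges, Ptgis, Hpgd, Ptger2, Ptger4, Alox5, Alox5ap and Ltc4s. They were chosen by symbol, with earlier results of these data known, and each matched 1 of the 31253 features counted. Single cells of the abdominal aorta were profiled on the BD Rhapsody system after an abdominal aortic aneurysm (AAA) had been induced with PPE. PPE is the elastase infusion that weakens the aortic wall in this mouse model. One library came from mice with a global deletion of Gsdme (Gsdme-KO), the gene of gasdermin E, which opens pores in the cell membrane after cleavage by caspases. The other came from C57BL/6J mice (WT), and both groups received PPE, so no library shows an aorta without aneurysm. Age, sex, time after PPE and how many mice were used are not given in the sources used here.

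Prostanoids and leukotrienes are lipid mediators made from arachidonic acid. Cyclooxygenases convert it to a shared intermediate, from which terminal synthases make prostaglandin E or prostacyclin, and the lipoxygenase encoded by Alox5 starts the leukotriene branch with the help of its activating protein. Prostaglandin E acts on vascular and immune cells through receptors such as those encoded by Ptger2 and Ptger4, and is inactivated inside cells by the dehydrogenase encoded by Hpgd. In the aortic wall macrophages, neutrophils, fibroblasts and smooth muscle cells are known sources of these mediators.

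From the Gsdme-KO library 8784 of 9034 barcodes were kept as cells, with 52532964 UMIs (unique molecules) over all barcodes and a median of 4062 per kept cell. From the WT library 7619 of 7736 barcodes were kept, with 38988898 UMIs and a median of 3835. The libraries share 73 barcode sequences. Gsdme itself had 2.55 counts per 1000000 UMIs (CPM) in the Gsdme-KO library and 5.53 CPM in the WT library (133 Gsdme-KO and 215 WT UMIs). Which exons the deletion removes is not given, so whether these UMIs check the genotype cannot be told. Cells were grouped into 25 clusters without using the 10 genes or 36 further genes of the pathways, so the levels of these genes did not shape the clusters. Macrophage-like cells formed 4 clusters, named here by a pair of their leading genes. The Lyve1 Folr2 cluster, which carried resident macrophage markers, held 1200 Gsdme-KO and 744 WT cells, and the Arg1 Spp1 cluster held 833 Gsdme-KO and 1161 WT cells. The Cd72 Slamf9 cluster held 304 Gsdme-KO and 576 WT cells and the dividing Top2a Pclaf cluster 102 Gsdme-KO and 106 WT cells. Macrophages were compared by cluster, because the largest macrophage-like cluster was not the same in the 2 libraries.

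With 1 library per genotype there is no replicate spread, and no test was run. Every level is the sum of a gene's UMIs in a class of cells, expressed as CPM of that class. Every ratio is Gsdme-KO over WT with an exact 95% interval that covers counting error only and describes these 2 libraries, not the genotypes. A ratio was computed for classes with at least 100 cells in each library and genes with at least 30 UMIs over both. In a tissue sample, more RNA per cell and more expressing cells within a class cannot be told apart from the sum alone, so shares of cells with a UMI are given for Hpgd, Ptgs2 and other genes where they bear on the result.

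Over 12 classes, 79 pairs of a gene and a class could be measured, of which 14 were at least 1.5-fold higher and 12 at least 1.5-fold lower in the Gsdme-KO library. Of the 10 genes measured in Arg1 Spp1 macrophages, Hpgd was past 1.5-fold higher and Ptger4 lower, against 3.93% of 10883 genes higher and 6.21% lower. Lyve1 Folr2 macrophages had Hpgd higher and Ptges lower among 9 genes, against 4.95% of all genes higher and 6.22% lower. Cd72 Slamf9 macrophages had Hpgd and Ltc4s higher and Ptgs2 and Ptger4 lower among 8 genes, against 5.84% higher and 7.88% lower. In the Top2a Pclaf cluster Alox5 and Ltc4s were higher and none lower among 7 genes, against 8.20% and 13.3%. Monocyte-like cells had Hpgd, Alox5 and Ltc4s higher and none lower among 9 genes, against 8.28% and 8.07%.

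Among 5 genes in dendritic-like cells Alox5 was higher and Ptger4 lower, against 8.33% of all genes higher and 9.65% lower. Neutrophil-like cells had Ptges and Ptger2 higher and Ptgs2 lower among 8 genes, against 7.03% and 9.05%. In T-like cells Ptgs2 was the 1 gene of 3 past 1.5-fold, and it was lower, against 6.96% of all genes higher and 9.59% lower. B-like cells had Alox5ap higher and Ptgs2 lower among 3 genes, against 10.7% and 15.2%, and platelet-like cells had Ptgs2 lower among 3 genes, against 10.1% and 17.8%.

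In fibroblast-like cells Ptger4 was lower and no gene higher among 9, against 4.75% of all genes higher and 12.9% lower. Endothelial-like cells had Ptgs2 higher and Ptgs1 and Ptger4 lower among 5 genes, against 7.87% and 11.1%. Over all kept cells Ptgis, Hpgd and Ltc4s were higher and Ptger4 lower among the 10 genes, against 7.73% and 8.12%. Because the genes were chosen with this contrast known, nothing is read from these counts.

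**Figure D1:**
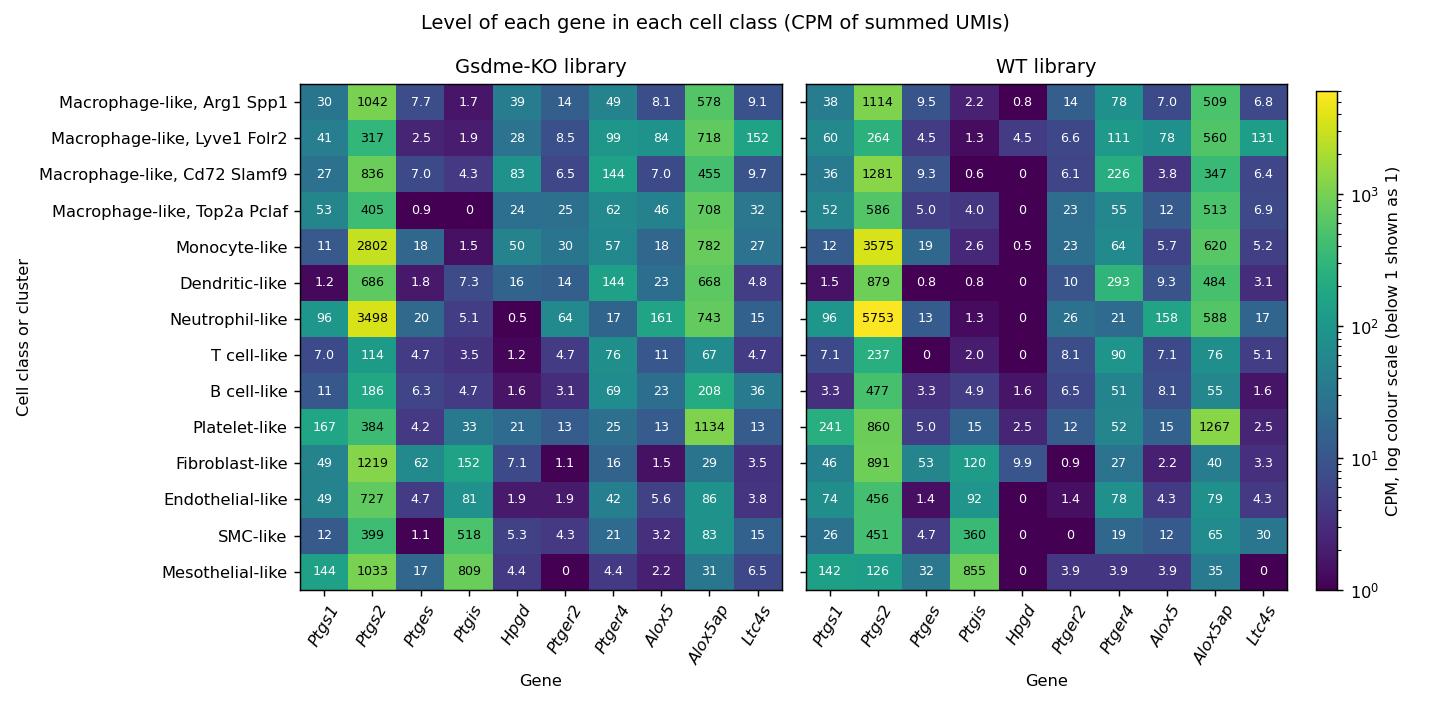
Level of each of the 10 genes (columns) in each cell class (rows) as CPM on a logarithmic colour scale, with the Gsdme-KO library on the left and the WT library on the right. Brighter colours are higher levels. Hpgd is brighter in the macrophage and monocyte rows of the Gsdme-KO panel than of the WT panel (39.0 CPM in Gsdme-KO against 0.779 CPM in WT Arg1 Spp1 macrophages). Ptgis is highest in the mesothelial, smooth muscle and fibroblast rows of both panels. Endothelial cells follow, with 80.9 CPM of Ptgis in Gsdme-KO and 92.4 CPM in WT.

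Ptgs1 encodes the constitutive cyclooxygenase, which in platelets feeds thromboxane synthesis. Ptgs1 lies on chromosome 2 at 36230426 to 36252272 on the plus strand of mm10, from GENCODE M21. Its level in platelet-like cells was 167 CPM in the Gsdme-KO library and 241 CPM in the WT library (40 Gsdme-KO and 97 WT UMIs), a ratio of 0.692 whose interval of 0.466 to 1.01 reaches 1. Neutrophil-like cells had 95.7 CPM in the Gsdme-KO library and 96.3 CPM in the WT library, and fibroblast-like cells 48.8 CPM in Gsdme-KO against 46.2 CPM in WT, with both intervals holding 1. Of the classes with 100 cells in each library, platelet-like and then neutrophil-like cells held the highest Ptgs1 levels in both libraries. In Lyve1 Folr2 macrophages it was 41.1 CPM in Gsdme-KO against 60.1 CPM in WT, a ratio of 0.683 (0.590 to 0.793), and in Arg1 Spp1 macrophages 29.9 CPM in Gsdme-KO against 38.4 CPM in WT, a ratio of 0.779 (0.646 to 0.936). Endothelial-like cells had 52 UMIs in the Gsdme-KO library and 51 in the WT library, or 48.9 CPM in Gsdme-KO and 73.7 CPM in WT, and their ratio of 0.664 has an upper bound of 0.997. That call was lost (0.698 to 0.738) in several other settings.

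Ptgs2 encodes the inducible cyclooxygenase, which inflammatory signals switch on. The gene lies on chromosome 1 at 150100031 to 150108227 on the plus strand of mm10. The 250 bases before its start in RefSeq are printed below with those of Hpgd, since these 2 genes held the lowest and the highest ratios of Gsdme-KO over WT past 1.5-fold. The windows are chr1:150099781-150100030 and chr8:56294302-56294551 of GRCm38.p6, both on the plus strand and read 5′ to 3′. Capitals mark the C/EBP palindrome TTGCGCAA, to which C/EBP transcription factors of myeloid cells bind.
Ptgs2: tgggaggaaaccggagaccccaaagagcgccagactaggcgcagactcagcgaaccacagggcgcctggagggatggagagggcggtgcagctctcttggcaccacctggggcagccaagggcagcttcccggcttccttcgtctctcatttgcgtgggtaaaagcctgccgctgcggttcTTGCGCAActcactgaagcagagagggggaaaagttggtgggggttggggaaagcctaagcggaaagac
Hpgd: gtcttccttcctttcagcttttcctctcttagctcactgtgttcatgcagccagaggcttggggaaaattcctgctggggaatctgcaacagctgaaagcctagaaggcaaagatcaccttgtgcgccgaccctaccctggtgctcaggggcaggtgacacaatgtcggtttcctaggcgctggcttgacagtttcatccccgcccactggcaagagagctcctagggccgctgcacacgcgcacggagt
The palindrome starts 69 bases before the Ptgs2 start, and 0.183% of 32851 RefSeq windows of 300 bases hold it on either strand. Just after the start the Ptgs2 window also holds the cyclic AMP response core TGACGT at base 13 and the E-box CACGTG at base 17, which 7.51% and 7.15% of windows hold, and these 2 matches overlap by 2 bases. The 300-base Hpgd window holds none of these 3 motifs on either strand, nor GAGGAAG, the core to which the myeloid factor PU.1 binds. It holds the TATA box letters TATAAA at base 5 after the start and not in the printed bases. Both of these last motifs are held by 13.6% of windows. Absence says only that these letters are not in the window. These matches are descriptions of sequence and not evidence of binding.

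Neutrophil-like cells held the highest Ptgs2 level of the named classes in both libraries. It was 3498 CPM in the Gsdme-KO library and 5753 CPM in the WT library (7532 Gsdme-KO and 13269 WT UMIs), a ratio of 0.608 (0.591 to 0.626). Both neutrophil clusters were lower in the Gsdme-KO library, with 4100 CPM in Gsdme-KO against 6333 CPM in WT in the cluster led by Il23a and Hcar2 and 2352 CPM in Gsdme-KO against 4044 CPM in WT in the cluster led by S100a9. The median neutrophil held 2 UMIs of Ptgs2 in the Gsdme-KO library and 5 in the WT library, and the highest cell 88 in Gsdme-KO and 137 in WT. After every cell had been thinned to 1000 UMIs, 63.2% of Gsdme-KO neutrophils and 75.0% of WT neutrophils held a Ptgs2 UMI (intervals 60.2 to 66.0 and 72.4 to 77.5), against 67.8% in Gsdme-KO and 78.2% in WT without thinning. Thinning left out 166 Gsdme-KO and 133 WT neutrophils with fewer UMIs. In B-like cells, taken as background, the thinned shares were 4.24% in Gsdme-KO and 9.31% in WT, and the median depth was 2519 UMIs in Gsdme-KO and 2200 in WT B-like cells, against 1570 in Gsdme-KO and 1656 in WT neutrophils.

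Monocyte-like cells came second, with 2802 CPM in the Gsdme-KO library and 3575 CPM in the WT library, a ratio of 0.784 (0.758 to 0.810). Arg1 Spp1 macrophages had 1042 CPM in Gsdme-KO against 1114 CPM in WT and Lyve1 Folr2 macrophages 317 CPM in Gsdme-KO against 264 CPM in WT, so these 2 clusters lay within 1.5-fold and on opposite sides of 1. With each library clustered alone the Lyve1 Folr2 ratio was 1.90. Cd72 Slamf9 macrophages had 836 CPM in Gsdme-KO against 1281 CPM in WT, a ratio of 0.653 (0.616 to 0.692), which was 1.37 in a coarser clustering whose matched cluster held 22 Gsdme-KO and 45 WT cells. The neutrophil and Cd72 Slamf9 ratios were past 1.5-fold and the monocyte ratio was not.

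T-like, B-like and platelet-like cells had lower levels than neutrophils, and all were lower in the Gsdme-KO library. In T-like cells the level was 114 CPM in Gsdme-KO against 237 CPM in WT, a ratio of 0.480 (0.375 to 0.611). B-like cells had 186 CPM in Gsdme-KO against 477 CPM in WT, a ratio of 0.390 (0.313 to 0.485), and platelet-like cells 384 CPM in Gsdme-KO against 860 CPM in WT, a ratio of 0.446 (0.351 to 0.563). Few cells carried these counts. In B-like cells the 5% of cells with most Ptgs2 held 89.9% of its UMIs in the Gsdme-KO library and 89.4% in the WT library. The highest B-like cell alone held 47 of 119 Gsdme-KO UMIs and 150 of 293 WT UMIs. Without the 5% of cells with the highest doublet scores the B-like ratio was 1.07 and the platelet-like ratio 0.849, so neither call held, and the platelet-like ratio was 1.05 with each library clustered alone. Of 10 neutrophil markers, 9 were detected in Gsdme-KO B-like cells, with Mmp8 at 0, and 10 in WT B-like cells, summing to 126 UMIs in Gsdme-KO and 119 in WT. All 10 were detected in platelet-like cells of both libraries, summing to 308 CPM in Gsdme-KO against 862 CPM in WT. Their part in the result was not tested.

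Fibroblast-like and endothelial-like cells stood on the other side. Fibroblast-like cells had 1219 CPM of Ptgs2 in the Gsdme-KO library and 891 CPM in the WT library (20800 Gsdme-KO and 7867 WT UMIs), a ratio of 1.37 (1.33 to 1.41), which is under 1.5-fold but was 1.54 with median-of-ratios size factors. Endothelial-like cells had 727 CPM in Gsdme-KO against 456 CPM in WT, a ratio of 1.59 (1.40 to 1.82). The 5% of endothelial-like cells with most Ptgs2 held 73.7% of its UMIs in Gsdme-KO and 75.0% in WT, and the ratio was 1.20 without the cells of highest doublet score and 1.28 as a mean over cells. All 9 monocyte markers were detected and summed to 3377 CPM in Gsdme-KO and 2133 CPM in WT endothelial-like cells, and their part was not tested. Smooth muscle-like cells, too few for a ratio, had 399 CPM in Gsdme-KO against 451 CPM in WT. Mesothelial-like cells were also too few, with 58 Gsdme-KO and 40 WT cells, and held 474 Gsdme-KO and 32 WT UMIs, or 1033 CPM in Gsdme-KO against 126 CPM in WT. The Ptgs2 UMIs were spread over 38 of 58 Gsdme-KO and 13 of 40 WT mesothelial-like cells, the highest holding 44 UMIs in Gsdme-KO and 6 in WT.

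**Figure D2:**
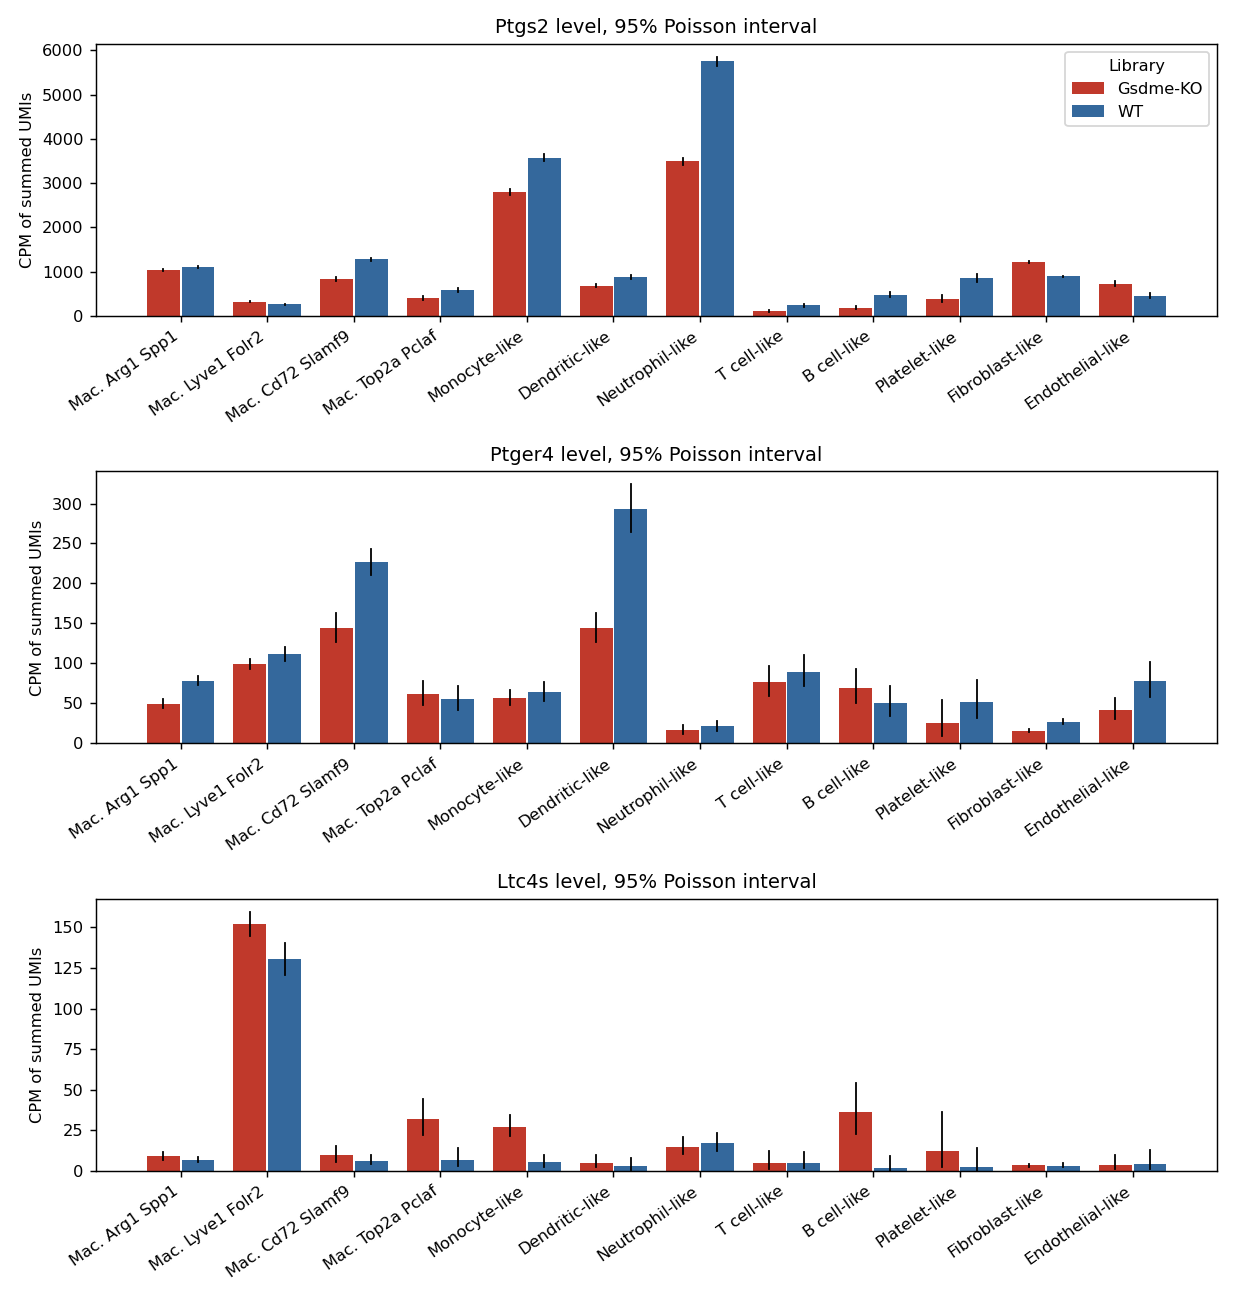
CPM of Ptgs2, Ptger4 and Ltc4s by cell class, with the Gsdme-KO bar left of the WT bar and exact 95% Poisson intervals for counting error only. Ptgs2 was 3498 CPM in Gsdme-KO neutrophils and 5753 CPM in WT neutrophils, while fibroblasts had 1219 CPM in Gsdme-KO against 891 CPM in WT.

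Ptges encodes the inducible synthase that makes prostaglandin E downstream of the cyclooxygenases. Its gene lies on chromosome 2 at 30889471 to 30929863 on the minus strand. Fibroblast-like cells supplied 76.1% of its UMIs in the Gsdme-KO library and 63.1% in the WT library. They had 62.4 CPM in Gsdme-KO against 52.5 CPM in WT, a ratio of 1.19 (1.06 to 1.33) that was 0.912 after thinning. The fibroblast cluster led by Sema3c and Ptx3 had 69.1 CPM in Gsdme-KO against 52.2 CPM in WT, and the cluster led by Cpxm2 and Mfap4 48.6 CPM in Gsdme-KO against 52.9 CPM in WT, so only the Sema3c Ptx3 ratio of 1.32 (1.14 to 1.53) excluded 1. Neutrophil-like cells had 20.4 CPM in Gsdme-KO against 12.6 CPM in WT on 44 Gsdme-KO and 29 WT UMIs, and Lyve1 Folr2 macrophages 2.50 CPM in Gsdme-KO against 4.55 CPM in WT on 26 Gsdme-KO and 24 WT UMIs. These ratios of 1.63 (0.994 to 2.69) and 0.550 (0.303 to 1.00) are past 1.5-fold, but the first interval holds 1 and the second ends at 1 at the precision printed. The Lyve1 Folr2 ratio was 0.763 as a mean over cells and 0.106 after thinning, the latter with no UMI minimum.

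Ptgis encodes prostacyclin synthase, whose product widens vessels and restrains platelets. It is also on chromosome 2, at 167191805 to 167240604 on the minus strand. In fibroblast-like cells it had 152 CPM in the Gsdme-KO library and 120 CPM in the WT library (2595 Gsdme-KO and 1057 WT UMIs), a ratio of 1.27 (1.18 to 1.37). Both fibroblast clusters were higher in the Gsdme-KO library, at 147 CPM in Gsdme-KO against 101 CPM in WT with Sema3c and Ptx3 and at 164 CPM in Gsdme-KO against 140 CPM in WT with Cpxm2 and Mfap4. Smooth muscle-like cells, with 174 Gsdme-KO and 61 WT cells, had 518 CPM (473 to 566) in Gsdme-KO against 360 CPM (305 to 421) in WT, given as levels because the WT cells were under 100. All 10 fibroblast markers were detected in them, summing to 35069 CPM in Gsdme-KO against 58412 CPM in WT. The part of those markers in the smooth muscle-like levels was not tested. Mesothelial-like cells had 809 CPM in Gsdme-KO against 855 CPM in WT. Endothelial-like cells had 80.9 CPM in Gsdme-KO against 92.4 CPM in WT (86 Gsdme-KO and 64 WT UMIs), a ratio of 0.875 (0.626 to 1.23). Over all kept cells the level was 73.6 CPM in Gsdme-KO against 41.0 CPM in WT, a ratio of 1.79 (1.69 to 1.90) that exceeds the ratio in either fibroblast cluster. The Gsdme-KO library held 1468 fibroblast-like cells of 8784 and the WT library 946 of 7619, and 67.6% of Ptgis UMIs in Gsdme-KO and 66.3% in WT came from them.

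Hpgd encodes the dehydrogenase that inactivates prostaglandin E and related prostanoids. It lies on chromosome 8 at 56294585 to 56321043 on the plus strand of mm10. Its level differed most of the 10 genes, and in Arg1 Spp1 and Cd72 Slamf9 macrophages and monocytes of the WT library it was at or close to 0. Arg1 Spp1 macrophages held 232 UMIs in the Gsdme-KO library and 7 in the WT library, or 39.0 CPM and 0.779 CPM, a ratio of 50.0 (23.9 to 126). Cd72 Slamf9 macrophages held 155 Gsdme-KO and 0 WT UMIs, or 83.4 CPM in Gsdme-KO against 0 CPM in WT, which is at least 95.7-fold higher when the WT sum is set at the floor of 3 UMIs for the class, and the exact interval of the ratio starts at 76.9. Monocyte-like cells held 133 Gsdme-KO and 1 WT UMIs, or 49.7 CPM and 0.520 CPM, a ratio of 95.5 whose interval from 16.8 to 3799 shows how little 1 WT UMI fixes it. In each of these 3 classes no gene among the 10883, 8863 and 8249 measured had a larger ratio or bound.

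Lyve1 Folr2 macrophages also held Hpgd in the WT library, with 27.5 CPM in the Gsdme-KO library and 4.55 CPM in the WT library (286 Gsdme-KO and 24 WT UMIs), a ratio of 6.05 (3.98 to 9.59), the 6th highest of 11013. The Top2a Pclaf macrophages held 26 Gsdme-KO and 0 WT UMIs and dendritic-like cells 27 Gsdme-KO and 0 WT UMIs, under the 30 needed for a ratio. It was nearly absent from neutrophil-like, T-like and B-like cells, with 1 Gsdme-KO and 0 WT UMIs in neutrophil-like cells, 1 Gsdme-KO and 0 WT in T-like cells and 1 in each in B-like cells. Platelet-like cells had 5 Gsdme-KO and 1 WT UMIs, or 20.8 CPM (6.77 to 48.6) in Gsdme-KO against 2.48 CPM (0.0629 to 13.8) in WT. The 80 Gsdme-KO plasma cell-like cells had 16 UMIs, or 15.3 CPM, and the 17 WT plasma cell-like cells 2 UMIs, or 10.7 CPM. All 10 fibroblast markers were detected in these cells of both libraries, summing to 29185 CPM in Gsdme-KO against 7526 CPM in WT. Their part in these Hpgd levels was not tested. A shallow unnamed cluster of 202 Gsdme-KO and 181 WT cells had 18 Gsdme-KO and 0 WT UMIs. The counts were spread over 121 Gsdme-KO cells and 3 WT cells in the Arg1 Spp1 cluster, 182 Gsdme-KO and 16 WT in the Lyve1 Folr2 cluster, 81 Gsdme-KO and 0 WT in the Cd72 Slamf9 cluster and 73 Gsdme-KO and 1 WT among monocytes. No single cell or cluster therefore carried them. Across other clusterings, cell filters and scalings the Arg1 Spp1 ratio lay between 24.4 and 93.9, the Cd72 Slamf9 ratio or bound between 3.37 and 97.6 and the monocyte ratio between 15.6 and 169.

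Cells were thinned to 1000 UMIs each to compare shares. An Hpgd UMI was then held by 4.22% of Gsdme-KO and 0.178% of WT Arg1 Spp1 macrophages and by 3.23% of Gsdme-KO and 0.704% of WT Lyve1 Folr2 macrophages. The shares were 7.85% of Gsdme-KO and 0% of WT Cd72 Slamf9 macrophages and 4.20% of Gsdme-KO and 0.270% of WT monocytes. Without thinning the Gsdme-KO shares in these 4 classes were 14.5%, 15.2%, 26.6% and 15.1%. B-like cells served as background, with 0% of the Gsdme-KO and 0.490% of the WT cells after thinning and 0.541% of Gsdme-KO and 0.457% of WT cells before it. The median depth was 6840 UMIs in Gsdme-KO and 7244 in WT Arg1 Spp1 macrophages, against 2519 in Gsdme-KO and 2200 in WT B-like cells. All 4 Gsdme-KO shares lie above the B-like shares, and the WT shares of 3 of these classes lie below the WT B-like share.

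**Figure D3:**
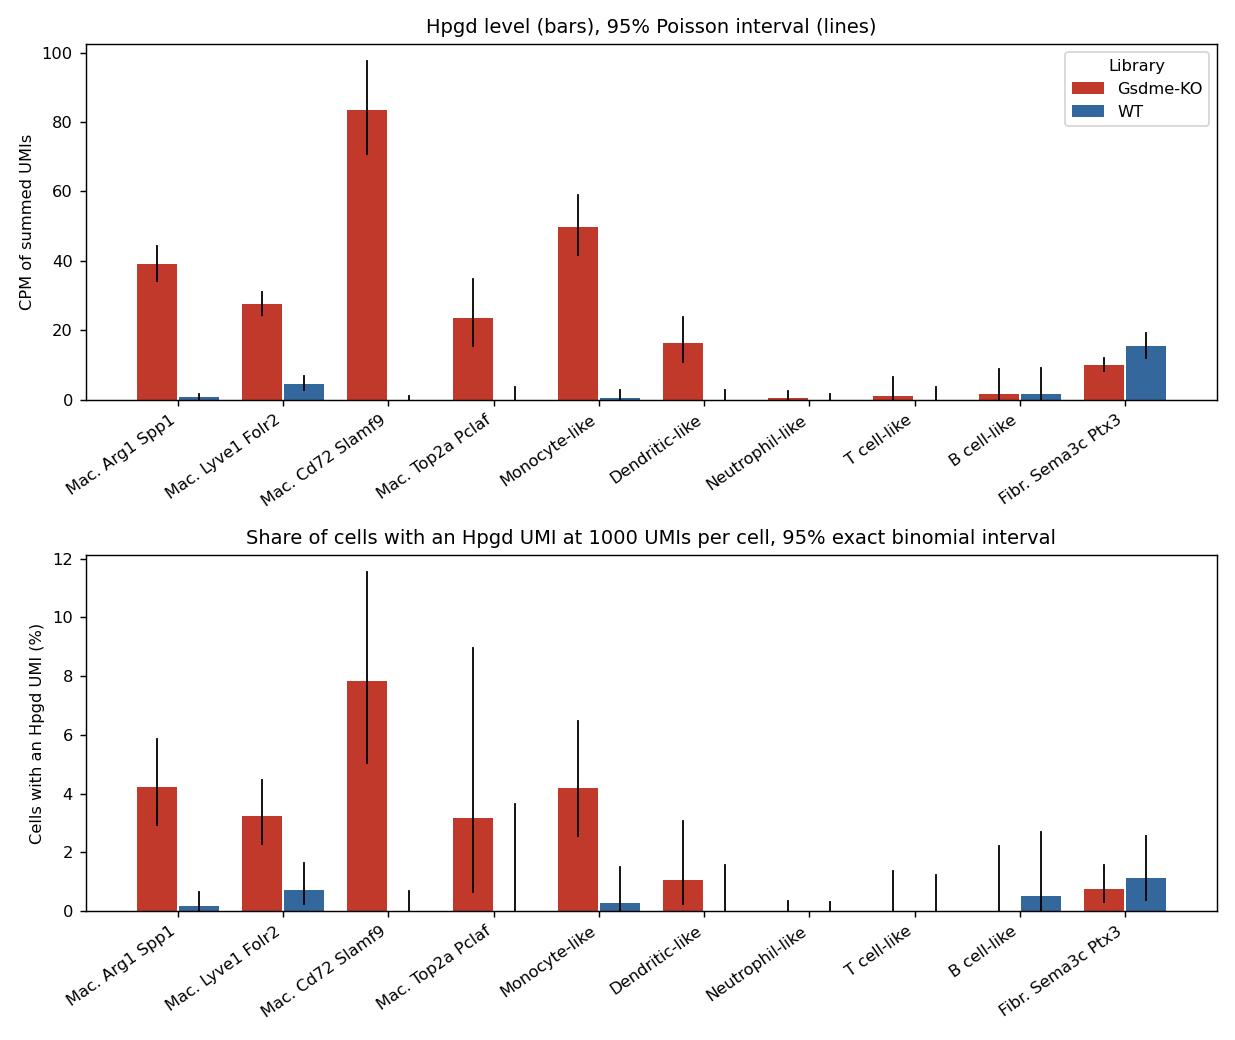
Top: Hpgd CPM by cell class with exact 95% Poisson intervals, Gsdme-KO left of WT. Bottom: share of cells with an Hpgd UMI after thinning each cell to 1000 UMIs. Macrophage and monocyte classes of the Gsdme-KO library lie between 23.6 and 83.4 CPM, whereas the fibroblast cluster led by Sema3c and Ptx3 has 10.1 CPM in the Gsdme-KO library and 15.3 CPM in the WT library.

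Fibroblast-like cells went the other way. They had 7.09 CPM of Hpgd in the Gsdme-KO library and 9.85 CPM in the WT library (121 Gsdme-KO and 87 WT UMIs), a ratio of 0.720 (0.542 to 0.960). Of all Hpgd UMIs, 11.3% in the Gsdme-KO library and 69.6% in the WT library came from fibroblast-like cells, whereas Lyve1 Folr2 and Arg1 Spp1 macrophages supplied 26.8% and 21.7% in the Gsdme-KO library. The class that supplied most Hpgd UMIs thus differed between the libraries.

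Markers of resident macrophages were checked beside Hpgd, because the Lyve1 Folr2 cluster was larger in the Gsdme-KO library. Hpgd per 1000 UMIs of 9 resident markers was 1.90 in Gsdme-KO and 0.354 in WT cells of the Lyve1 Folr2 cluster. It was 20.1 in Gsdme-KO and 0.485 in WT cells of the Arg1 Spp1 cluster, and 99.1 in Gsdme-KO and 0 in WT cells of the Cd72 Slamf9 cluster. In cells with fewer than 3 of the 9 markers the level was 29.9 CPM in Gsdme-KO against 0.197 CPM in WT Arg1 Spp1 macrophages, 89.3 CPM in Gsdme-KO against 0 CPM in WT Cd72 Slamf9 macrophages and 67.3 CPM in Gsdme-KO against 0.609 CPM in WT monocytes. The difference was therefore present in cells with few resident markers. When the Arg1 Spp1 cluster was divided at a finer resolution, its 3 subclusters had 13.3, 56.8 and 109 CPM in the Gsdme-KO library and 0.255, 1.07 and 0.828 CPM in the WT library. Of the annotated genes within 500000 bases, only Cep44 and Fbxo8 had at least 30 UMIs over both libraries in these classes. Their intervals hold 1 in the Arg1 Spp1, Lyve1 Folr2, Cd72 Slamf9 and monocyte classes, for example 1.06 (0.833 to 1.35) for Fbxo8 in Arg1 Spp1 macrophages. Genes with fewer UMIs were not compared.

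Ptger2 encodes a prostaglandin E receptor that raises cyclic AMP. It lies on chromosome 14 at 44988195 to 45003820 on the plus strand. Neutrophil-like cells had 63.6 CPM in the Gsdme-KO library and 26.0 CPM in the WT library (137 Gsdme-KO and 60 WT UMIs), a ratio of 2.45 (1.79 to 3.37). It was higher in both neutrophil clusters, at 75.8 CPM in Gsdme-KO against 28.5 CPM in WT with Il23a and Hcar2 and at 40.5 CPM in Gsdme-KO against 18.8 CPM in WT with S100a9. After thinning, 4.74% (3.56 to 6.17) of Gsdme-KO and 2.51% (1.69 to 3.59) of WT neutrophils held a Ptger2 UMI, against 7.05% in Gsdme-KO and 4.20% in WT without thinning. Endothelial-like cells, with median depths of 2977 UMIs in Gsdme-KO and 2768 in WT cells, gave a background of 0% in Gsdme-KO and 1.06% in WT. In neutrophil-like cells Ptgs2 was lower in the Gsdme-KO library while Ptger2 was higher. An overlapping antisense gene, Gm17173, had 34 Gsdme-KO and 26 WT UMIs in neutrophils and an interval that holds 1, and reads of the pair cannot be told apart where strand was not used. In every other class measured the Ptger2 interval held 1, with 29.9 CPM in Gsdme-KO against 23.4 CPM in WT monocytes as the next highest of the named classes in both libraries.

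Ptger4 encodes another receptor for prostaglandin E that raises cyclic AMP and restrains macrophage cytokine release. It lies on chromosome 15 at 5206661 to 5244187 on the minus strand. Dendritic-like cells had 144 CPM in the Gsdme-KO library and 293 CPM in the WT library, a ratio of 0.491 (0.416 to 0.579). No class of at least 100 cells was higher in the WT library. The median dendritic-like cell held 0 Ptger4 UMIs in the Gsdme-KO library and 1 in the WT library. At a finer resolution the larger dendritic-like subcluster held 288 Gsdme-KO and 205 WT cells. The smaller held 23 Gsdme-KO and 46 WT cells, so the make-up of the class differed between the libraries. The part of this make-up in the Ptger4 ratio was not tested. Cd72 Slamf9 macrophages had 144 CPM in Gsdme-KO against 226 CPM in WT, a ratio of 0.637 (0.552 to 0.732), and Arg1 Spp1 macrophages 49.2 CPM in Gsdme-KO against 78.2 CPM in WT, a ratio of 0.629 (0.547 to 0.722). Lyve1 Folr2 macrophages had 99.1 CPM in Gsdme-KO against 111 CPM in WT, a ratio of 0.890 (0.803 to 0.986), and in monocytes the interval held 1. Neither call in macrophages held in every setting. The Arg1 Spp1 ratio was 0.748 with each library clustered alone and the Cd72 Slamf9 ratio reached 0.777 in another setting. Ptger4 was past 1.5-fold lower in the Gsdme-KO library in 2 of the 4 macrophage clusters, and the level in Gsdme-KO dendritic-like cells was close to that in Gsdme-KO Cd72 Slamf9 macrophages.

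In fibroblast-like and endothelial-like cells Ptger4 was also lower. Fibroblast-like cells had 15.8 CPM in Gsdme-KO against 27.2 CPM in WT (269 Gsdme-KO and 240 WT UMIs), a ratio of 0.580 (0.486 to 0.694), and endothelial-like cells 42.3 CPM in Gsdme-KO against 78.0 CPM in WT (45 Gsdme-KO and 54 WT UMIs), a ratio of 0.543 (0.357 to 0.821). All 21 macrophage markers were detected in both classes. They summed to 486 CPM in Gsdme-KO against 977 CPM in WT fibroblast-like cells, and to 1120 CPM in Gsdme-KO against 1613 CPM in WT endothelial-like cells. The part of those markers in the Ptger4 ratios was not tested. Smooth muscle-like cells, too few for a ratio, had 20 Gsdme-KO and 8 WT UMIs, or 21.3 CPM in Gsdme-KO against 18.7 CPM in WT. T-like cells had 76.3 CPM in Gsdme-KO against 89.5 CPM in WT, B-like cells 68.9 CPM in Gsdme-KO against 50.5 CPM in WT and neutrophil-like cells 16.7 CPM in Gsdme-KO against 21.2 CPM in WT. Over all kept cells it was 51.3 CPM in Gsdme-KO against 82.4 CPM in WT, a ratio of 0.623 (0.592 to 0.656) that was 0.746 after thinning and 0.679 as a mean over cells, within 1.5-fold. Ttc33, which overlaps Ptger4 on the other strand, had ratios of 1.28, 1.09, 1.19, 0.988 and 1.01 in Arg1 Spp1, Cd72 Slamf9, dendritic, fibroblast and endothelial classes, none at or below the ratio of Ptger4.

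**Figure D4:**
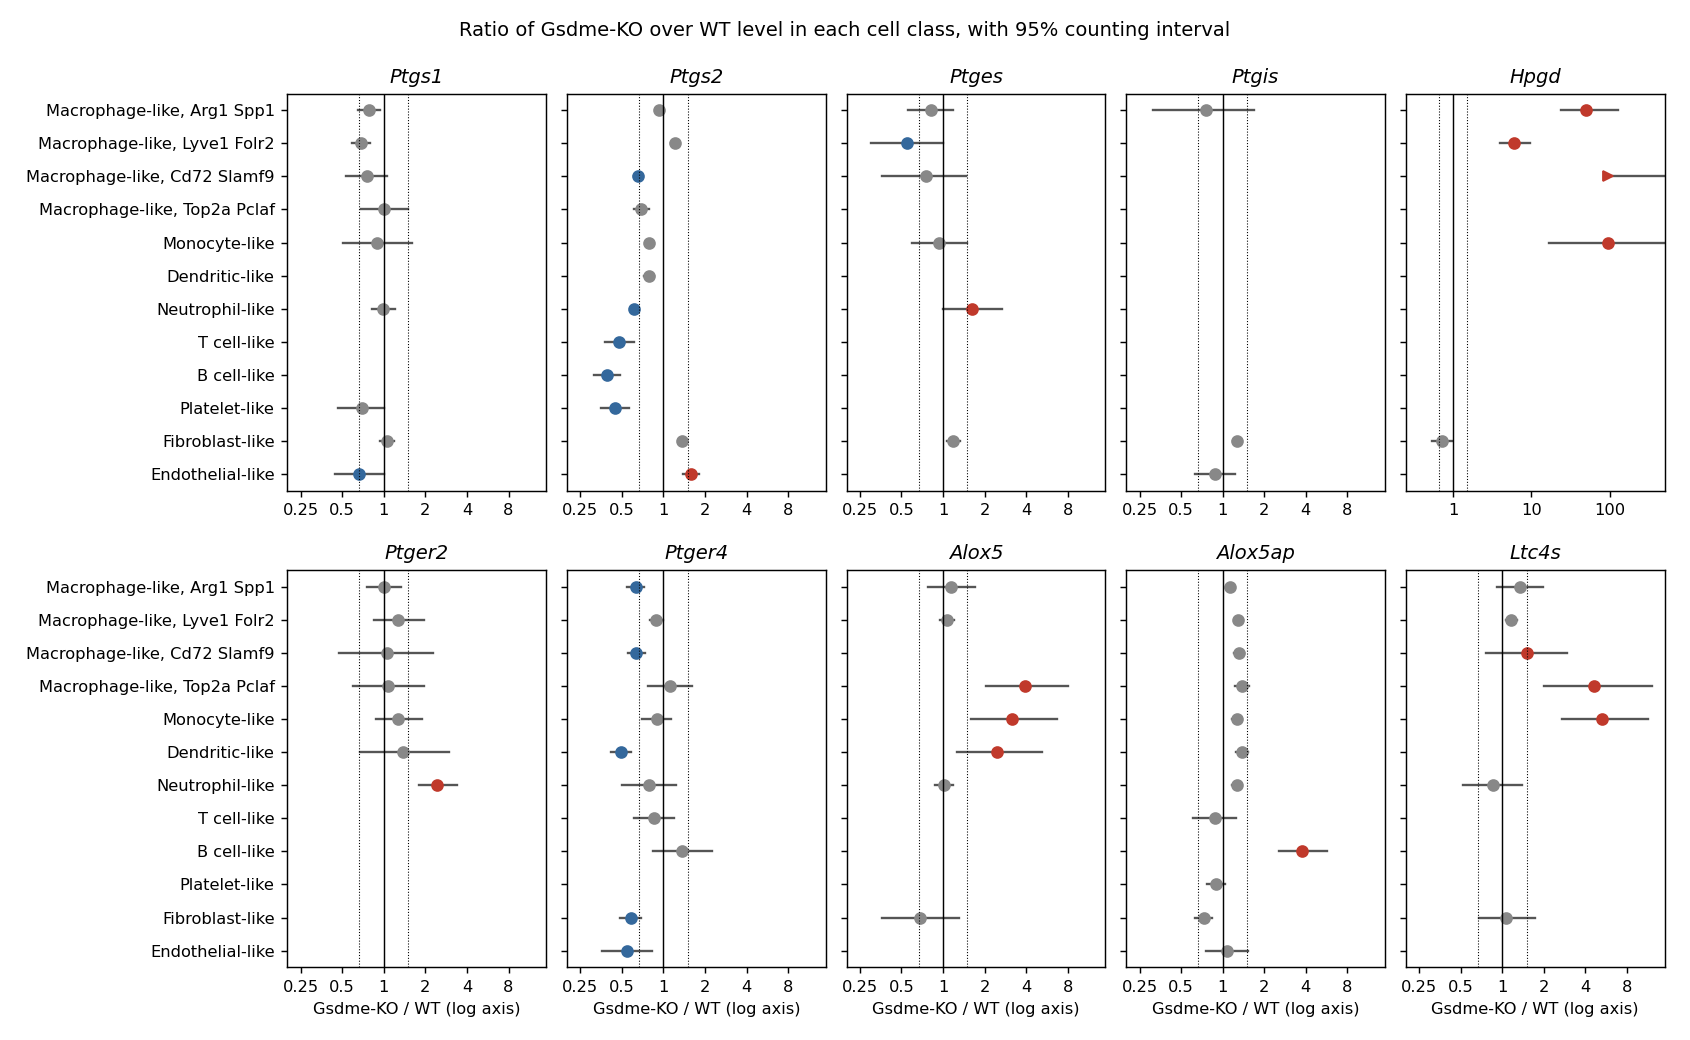
Ratio of Gsdme-KO over WT for each of the 10 genes in 12 cell classes, with exact 95% intervals for counting error only on a logarithmic axis and dotted lines at 1.5-fold. Red marks at least 1.5-fold higher, blue at least 1.5-fold lower and grey between, and a triangle marks a lower bound; Hpgd has its own wider axis because its ratios reach 95.7.

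Alox5 encodes the lipoxygenase that starts leukotriene synthesis. It lies on chromosome 6 at 116410077 to 116461178 on the minus strand. In neutrophil-like cells it had 161 CPM in the Gsdme-KO library and 158 CPM in the WT library, a ratio of 1.02 (0.877 to 1.18), and in Lyve1 Folr2 macrophages 83.7 CPM in Gsdme-KO against 78.3 CPM in WT, a ratio of 1.07 (0.950 to 1.20). These classes held the most counts and differed little between the libraries. In 3 classes with few counts it was higher in the Gsdme-KO library. Monocytes had 48 Gsdme-KO and 11 WT UMIs, or 17.9 CPM in Gsdme-KO against 5.73 CPM in WT, a ratio of 3.13 (1.60 to 6.69), Top2a Pclaf macrophages 51 Gsdme-KO and 12 WT UMIs, or 46.3 CPM in Gsdme-KO against 11.9 CPM in WT, a ratio of 3.90 (2.05 to 8.04), and dendritic-like cells 38 Gsdme-KO and 12 WT UMIs, a ratio of 2.48 (1.27 to 5.21). With every cell thinned to 1000 UMIs the Top2a Pclaf and dendritic-like ratios were 1.39 and 1.36, under 1.5-fold. No UMI minimum was set for thinned ratios, so these values do not decide the calls. Resident macrophage markers, given with Ltc4s, were higher in the Gsdme-KO library in monocytes and Top2a Pclaf macrophages, and in dendritic-like cells summed to 515 CPM in Gsdme-KO against 802 CPM in WT.

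Alox5ap encodes the membrane protein that presents arachidonic acid to the lipoxygenase. It lies on chromosome 5 at 149264767 to 149288153 on the plus strand. It was within 1.5-fold in every macrophage, monocyte, dendritic and neutrophil class, and each of those 7 intervals lay above 1. Lyve1 Folr2 macrophages had 718 CPM in Gsdme-KO against 560 CPM in WT, a ratio of 1.28 (1.23 to 1.34), monocytes 782 CPM in Gsdme-KO against 620 CPM in WT, a ratio of 1.26 (1.18 to 1.36), and neutrophils 743 CPM in Gsdme-KO against 588 CPM in WT, a ratio of 1.26 (1.17 to 1.36). Platelet-like cells had 1134 CPM in Gsdme-KO against 1267 CPM in WT and an interval that holds 1. Fibroblast-like cells had 29.3 CPM in Gsdme-KO against 40.1 CPM in WT, a ratio of 0.730 (0.636 to 0.839), and their 21 macrophage markers, all detected, summed to 486 CPM in Gsdme-KO against 977 CPM in WT. B-like cells had 133 Gsdme-KO and 34 WT UMIs, or 208 CPM in Gsdme-KO against 55.4 CPM in WT, a ratio of 3.76 (2.56 to 5.65), and their macrophage markers summed to 3430 UMIs in Gsdme-KO against 1255 in WT, with Cd163 at 0 in the WT cells. The part of those markers in the fibroblast and B-like results was not tested.

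Ltc4s encodes the synthase that makes leukotriene C, the first of the cysteinyl leukotrienes. It lies on chromosome 11 at 50236461 to 50238616 on the minus strand. Lyve1 Folr2 macrophages supplied 79.2% of its UMIs in the Gsdme-KO library and 76.1% in the WT library. There it had 152 CPM in Gsdme-KO against 131 CPM in WT (1580 Gsdme-KO and 689 WT UMIs), a ratio of 1.16 (1.06 to 1.27). In monocytes it had 73 Gsdme-KO and 10 WT UMIs, or 27.3 CPM in Gsdme-KO against 5.20 CPM in WT, a ratio of 5.24 (2.69 to 11.4), the 11th highest of 8249 genes measured, and in Top2a Pclaf macrophages 35 Gsdme-KO and 7 WT UMIs, or 31.8 CPM in Gsdme-KO against 6.93 CPM in WT, a ratio of 4.59 (2.01 to 12.2). After thinning the monocyte ratio was 2.18 and the Top2a Pclaf ratio 1.04. Thinning leaves fewer UMIs, and no UMI minimum was set for thinned ratios, so these values do not decide either call. Cd72 Slamf9 macrophages held only 18 Gsdme-KO and 22 WT UMIs, and their ratio of 1.52 (0.766 to 2.96) holds 1. The gene was thus mainly a Lyve1 Folr2 transcript in both libraries. An overlapping antisense gene, Gm26542, had 68 Gsdme-KO and 54 WT UMIs in Lyve1 Folr2 macrophages, a ratio of 0.639 (0.440 to 0.931). In Cd72 Slamf9 macrophages Gm26542 had 8 Gsdme-KO and 27 WT UMIs, and in monocytes 2 Gsdme-KO and 6 WT UMIs. Reads of Ltc4s and Gm26542 cannot be told apart where strand was not used.

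All 9 resident macrophage markers were detected in monocytes and in Top2a Pclaf macrophages of both libraries, and none was at 0. They summed to 2614 CPM in Gsdme-KO monocytes and 1456 CPM in WT monocytes, and to 3819 CPM in Gsdme-KO against 1180 CPM in WT Top2a Pclaf macrophages. Ltc4s per 1000 of these marker UMIs was 10.4 in Gsdme-KO against 3.57 in WT monocytes, 8.33 in Gsdme-KO against 5.88 in WT Top2a Pclaf macrophages and 10.5 in Gsdme-KO against 10.2 in WT Lyve1 Folr2 macrophages. Alox5 per 1000 marker UMIs was 6.86 in Gsdme-KO against 3.93 in WT monocytes and 12.1 in Gsdme-KO against 10.1 in WT Top2a Pclaf macrophages. The ratios relative to resident markers were therefore smaller than the ratios of CPM in both classes for both genes, and the part of resident cells in them was not tested. Over all kept cells Ltc4s had 38.2 CPM in Gsdme-KO against 23.3 CPM in WT, a ratio of 1.64 (1.52 to 1.78) that was 1.20 after thinning, beside the larger Lyve1 Folr2 cluster of the Gsdme-KO library.

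**Figure D5:**
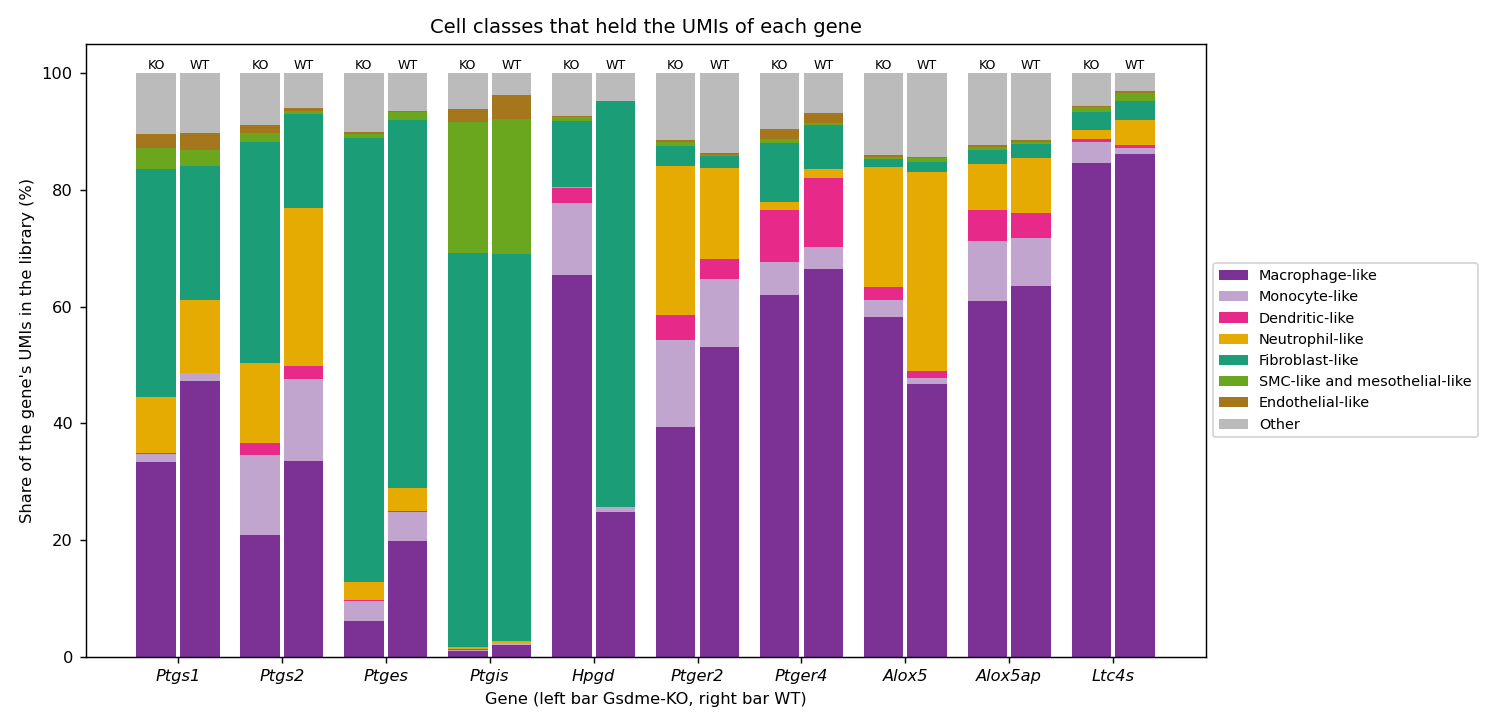
Share of each gene's UMIs by cell class as stacked bars of percent, with the Gsdme-KO bar left of the WT bar for each gene. For Hpgd the fibroblast share is 11.3% in the Gsdme-KO bar and 69.6% in the WT bar, while macrophage-like cells fill most of both Ltc4s bars.

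Of 38 further genes of these pathways, 36 matched 1 feature each, and 172 pairs of a gene and a class could be measured, of which 13 were past 1.5-fold higher and 28 lower in the Gsdme-KO library. By class 3.93% to 10.7% of all genes were higher and 6.21% to 17.8% lower. In fibroblast-like cells 2 of 25 genes were higher and 6 lower, against 4.75% and 12.9% of all genes, with a median log2 ratio of -0.06 against -0.14 over all genes measured there. Ptger3, which encodes a prostaglandin E receptor that lowers cyclic AMP, had 43.0 CPM in Gsdme-KO against 23.2 CPM in WT, a ratio of 1.85 (1.58 to 2.17), in the same cells in which Ptger4 was lower. Dpep1, a dipeptidase that trims leukotriene D, had 162 CPM in Gsdme-KO against 287 CPM in WT, a ratio of 0.566 (0.536 to 0.598), and Ggt5, which acts on leukotriene C, 16.7 CPM in Gsdme-KO against 32.5 CPM in WT. Ggt5 was also past 1.5-fold lower in Arg1 Spp1 macrophages, but past 1.5-fold higher in Lyve1 Folr2 macrophages.

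Among myeloid cells the phospholipase gene Pla2g2d had 2.98 CPM in Gsdme-KO and 27.9 CPM in WT Lyve1 Folr2 macrophages, a ratio of 0.107 (0.070 to 0.158). In fibroblast-like cells Pla2g2d went the other way and was past 1.5-fold higher. Mgll, which releases arachidonic acid from an endocannabinoid, had 50 Gsdme-KO and 18 WT UMIs in Arg1 Spp1 macrophages, a ratio of 4.19 (2.40 to 7.63). In monocytes 0 of 15 genes were higher and 3 lower (Ptgir, Cyp4f18 and Alox15), against 8.28% and 8.07% of all genes. Alox15 had 3 Gsdme-KO and 32 WT UMIs there, or 1.12 CPM in Gsdme-KO against 16.7 CPM in WT, a ratio of 0.067 (0.013 to 0.215). In neutrophil-like cells the prostaglandin D synthase gene Hpgds had 5.57 CPM in Gsdme-KO against 17.8 CPM in WT and the thromboxane synthase gene Tbxas1 23.2 CPM in Gsdme-KO against 13.4 CPM in WT. In that class 2 of 14 genes were higher and 2 lower, against 7.03% and 9.05% of all genes. Hpgds was not particular to neutrophils. It was also past 1.5-fold lower in Top2a Pclaf macrophages and in dendritic-like, B-like, fibroblast-like and endothelial-like cells, and past 1.5-fold higher in no class. Tbxas1, higher in neutrophils, was past 1.5-fold lower in dendritic-like cells.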

How the data were processed

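Each library was deposited as whole-number counts per gene and barcode. CASAVA 1.8, STARsolo and mm10 are listed, per the submitters' processing notes. That the counts are UMIs follows from the platform, and the strand setting and annotation are not given in the sources used here. Of the feature IDs, 31107 were found in GENCODE M21. Cells needed at least 500 UMIs, 250 genes and at most 25% mitochondrial UMIs. Scrublet marked 1 of 8784 Gsdme-KO and 0 of 7619 WT cells, so it had not worked and doublets remain.

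Kept cells (16403) were scaled to 10000 UMIs each. With 2000 variable genes, 30 principal components, 15 neighbours and Leiden resolution 1 (scanpy 1.11.5, leidenalg 0.10.2, Python 3.11.15), 25 clusters formed, named "X-like" from at least 3 markers in 25% of cells. The dendritic-like cluster also had Klrb1b and Klrd1 among its leading genes, and shallow clusters stayed unnamed. A deep cluster led by Lyz1 and Ear2 also stayed unnamed, although it met the rule with 3 dendritic markers. It held 188 Gsdme-KO and 93 WT cells, with 2371 Gsdme-KO and 1196 WT UMIs of Ptgs2. Of Hpgd it held 7 Gsdme-KO and 0 WT UMIs. UMIs were summed per class and expressed as CPM. Intervals (scipy 1.17.1) were exact Poisson for sums, exact binomial (Clopper-Pearson) for shares and exact conditional binomial for ratios. The ratio step was checked on simulated data.

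All 10 genes are described. Further pathway genes were named where past 1.5-fold with an interval off 1. The genes and lists were chosen with earlier results of these data known. Alternatives changed the cell filters, doublets, clustering, scaling (TMM by edgeR 4.0.16 in R 4.3.3), minimum and fold. Sequences come from RefSeq (GRCm38.p6), where 8 of the 10 genes matched.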

Additional observations from a re-analysis of the deposited data

Results flagged for a closer look

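Each pair of results below had ratios on opposite sides of 1 in 2 cell classes of the same libraries, and the difference between the classes was not tested. Ptgs2 had a ratio of 1.59 in endothelial-like cells and 0.390 in B-like cells. Ptges had a ratio of 1.19 in fibroblast-like cells, which was 0.912 after thinning, and 0.550 in Lyve1 Folr2 macrophages, which ranged from 0.106 to 0.763 across settings. Hpgd was at least 95.7-fold higher in Gsdme-KO Cd72 Slamf9 macrophages, with the WT sum of 0 UMIs set at the floor of 3, and had a ratio of 0.720 in fibroblast-like cells. Alox5ap had a ratio of 3.76 in B-like cells and 0.730 in fibroblast-like cells. All are Gsdme-KO over WT, and each pair gives the highest and lowest class among those whose interval left out 1 before rounding, which for Ptges in Lyve1 Folr2 macrophages ends at 1.00 as printed.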

How the results depend on the processing

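Hpgd was higher in the Gsdme-KO library in every setting that gave a ratio, within 24.4 to 93.9 in Arg1 Spp1 macrophages, 4.94 to 6.39 in Lyve1 Folr2 macrophages, 3.37 to 97.6 in Cd72 Slamf9 macrophages and 15.6 to 169 in monocytes. Over all cells it was 8.77 as a mean over cells and 9.19 after thinning. In Lyve1 Folr2 cells with fewer than 3 resident markers, an alternative chosen after seeing the data, 51 Gsdme-KO cells held 12 UMIs and 32 WT cells 0, a lower bound of 2.43 at the floor of 3 UMIs. Ptger2 in neutrophils stayed within 2.27 to 2.61, Ptger4 in dendritic-like cells within 0.478 to 0.627 and Ptgs2 in neutrophils within 0.603 to 0.634, the last with TMM. Direction turned for 3 ratios past 1.5-fold. Ptgs2 in Cd72 Slamf9 macrophages was 1.37 at Leiden resolution 0.5, where the matched cluster held 22 Gsdme-KO and 45 WT cells. Ptgs2 in B-like cells was 1.07 without the cells of highest doublet score, on 83 Gsdme-KO and 75 WT UMIs. Ptgs2 in platelet-like cells was 1.05 with each library clustered alone, and the cause was not tested. Among ratios within 1.5-fold, 4 crossed 1. After thinning, Ptges in fibroblast-like cells was 0.912, Ltc4s in Lyve1 Folr2 macrophages 0.976 and Ptger4 there 1.06. Ltc4s there was also 0.989 with each library clustered alone, and Ptgs2 in dendritic-like cells was 1.00 at Leiden resolution 0.5. Of 28 ratios past 1.5-fold, 22 to 28 stayed past it in the settings where all could be recomputed, 22 of them as a mean over cells and after thinning. This set holds the class ratios whose interval left out 1, together with ratios over all kept cells. It therefore leaves out the weaker calls of Ptges in neutrophils and Ltc4s in Cd72 Slamf9 macrophages. Of the pairs of a gene and a class, 6 were higher and 11 lower after thinning, which left 44 measured. With no UMI minimum 32 were higher and 20 lower, and at 2-fold 11 were higher and 4 lower. Shares of all genes past the fold were computed in the main setting only, so nothing is read from these counts. After thinning, Alox5 in Top2a Pclaf macrophages was 1.39 and in dendritic-like cells 1.36, and Ltc4s 1.04 in Top2a Pclaf macrophages and 2.18 in monocytes. The endothelial Ptgs1 ratio was 0.698 to 0.738 in several settings and the endothelial Ptgs2 ratio 1.20 without the cells of highest doublet score. Alox5ap in B-like cells lay within 1.76 to 4.51. With each library clustered alone no Gsdme-KO cluster matched the Cd72 Slamf9 cells, so that value is missing. Low counts limit Ptges in leukocytes and Ltc4s outside the Lyve1 Folr2 cluster. No paired analysis was possible because each genotype had 1 library.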

Other observations

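A shallow cluster led by Dach1, which stayed unnamed, held Alox5 at 291 CPM in the Gsdme-KO library and 266 CPM in the WT library (115 and 98 UMIs), and Alox15 at 251 CPM in Gsdme-KO and 236 CPM in WT. The 11 Gsdme-KO mast-like cells had 438 CPM of Alox5 and the 12 WT mast-like cells 261 CPM.

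Likeness to other genes was described by Pearson's r of log2(CPM + 1) over 45 groups of a cluster and a library, among 11608 genes. These groups share their library and their depth, so r is a description. Alox5ap was most like Itgam (r = 0.94), Fcer1g (0.94) and Plek (0.93), and Ptgis was like Sulf1 (0.92) and Glis2 (0.91). Ptger2 was most like Nlrp3 (0.89), Ptgs2 most like Tnfaip2 (0.88), Ptger4 most like Irf8 (0.86), Alox5 most like Osbpl9 (0.85) and Ltc4s most like Cbr2 (0.80). Ptgs1 was most like Sec14l1 (0.74), Ptges most like Ugp2 (0.74) and Hpgd most like the chemokine gene Ccl7 (0.63), the lowest of these values.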
